A study of Mus musculus with 8 samples.

Results

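Transcripts of 5 enzymes of lipid and sterol metabolism were followed across single cells sorted from mouse stomach glands. The genes were Cyp27a1, Sgpp2, Acsl3, Pecr and Lypla1, chosen by name as 5 of the 779 genes with a complete row in the deposited count table, and all 5 had a row. The cells came from mice of the genotype Atp4bCre; Rosa26NICD; Arid1aflox/flox at 23 weeks of age, the only group, so no control genotype was compared here. Cre under the promoter of Atp4b, a proton pump gene of parietal cells, switches on the intracellular domain of Notch from Rosa26 and removes the floxed part of Arid1a, a chromatin remodelling gene, so the model targets cells in which that promoter is or was active. Cells with high EPCAM, an epithelial surface protein, and low uptake of a dead-cell dye were sorted before droplet sequencing on the 10x platform. The labels list 8 samples, each a gland, without tying them to individual mice, and the 1460 distinct barcodes carry no sample name, so the table was read as 1 sample without replicates. Comparisons are between groups of barcodes, and their 95% intervals cover counting error only.

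The enzymes act at separate points of lipid metabolism and in different compartments of the cell. Cyp27a1 encodes a mitochondrial cytochrome P450 that hydroxylates the side chain of cholesterol, a step of the alternative route to bile acids that also yields oxysterols. Sgpp2 encodes a phosphatase of the endoplasmic reticulum that removes the phosphate from phosphorylated sphingosine, a signalling lipid. Acsl3 encodes a synthetase that joins long-chain fatty acids to coenzyme A and is known from lipid droplets, Pecr a peroxisomal reductase of enoyl-CoA in fatty acid chain elongation, and Lypla1 a thioesterase that takes palmitate off proteins and can also act on lysophospholipids.

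All 5 genes are protein-coding and lie on chromosome 1 of GRCm38, the assembly that mm10 names. By GENCODE vM21, Lypla1 spans chr1:4807788-4848410 on the plus strand, Pecr chr1:72259167-72284314 on the minus strand, and Cyp27a1 chr1:74713574-74737892, Sgpp2 chr1:78310345-78420289 and Acsl3 chr1:78657825-78707743 on the plus strand. Sgpp2 shares its last 2315 bases with Farsb on the other strand, Utp14b lies within Acsl3 on the same strand, and the long noncoding gene D230017M19Rik lies across part of Pecr. Lypla1 shares 40519 bases with Gm37988 on its own strand. Whether reads were counted by strand is not given in the sources used here, so reads of these overlaps could have been assigned to either gene or dropped.

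The RefSeq promoter table of GRCm38.p6 held an entry for 4 of the 5 genes, all but Lypla1. The 250 bases that it places before the start are shown for Cyp27a1 and Sgpp2, the genes with the highest ratio in the Gsta3 comparison and the lowest in the Arl4c comparison among the 5. These stretches do not end right before the GENCODE starts given above. The Cyp27a1 stretch ends at 74713534, where GENCODE starts the gene at 74713574. The Sgpp2 stretch ends on the first GENCODE base of the gene, 78310345. Capitals mark 2 motifs searched on both strands, CCAAT, which reads ATTGG on the other strand, and the GC box core GGGCGG, which reads CCGCCC there, and no 2 matches overlap. The Cyp27a1 stretch is chr1:74713285-74713534 and the Sgpp2 stretch chr1:78310096-78310345, both on the plus strand and written 5′ to 3′.
Cyp27a1: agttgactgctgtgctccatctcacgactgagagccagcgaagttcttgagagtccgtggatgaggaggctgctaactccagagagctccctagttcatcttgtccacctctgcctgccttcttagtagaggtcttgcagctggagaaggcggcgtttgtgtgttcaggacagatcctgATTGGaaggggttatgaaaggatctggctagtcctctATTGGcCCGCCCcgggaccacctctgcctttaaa
Sgpp2: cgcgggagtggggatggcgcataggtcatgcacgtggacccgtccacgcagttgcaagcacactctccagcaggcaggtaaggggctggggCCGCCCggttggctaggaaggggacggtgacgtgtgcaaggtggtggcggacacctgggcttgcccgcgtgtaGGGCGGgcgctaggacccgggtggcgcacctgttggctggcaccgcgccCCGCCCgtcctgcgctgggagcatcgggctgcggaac
The Cyp27a1 stretch, with a GC content of 54.0%, held 2 matches to CCAAT and a single GC box core. The Sgpp2 stretch, with a GC content of 70.8%, held 3 GC box cores and 0 matches to the other motif. Of 32851 RefSeq promoter stretches of the same length, 33.8% held CCAAT and 32.7% the GC box core on either strand, so neither motif is rare. A match is a description of the letters only.

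Barcodes with 100 or more unique molecular identifiers (UMIs, each a counted transcript molecule) were used, 1388 of 1460, with 439743 UMIs. Their totals ran from 100 to 1082 UMIs with a median of 286. The symbols that could be placed all lie between positions 3102016 and 89933290 of chromosome 1. A total thus counts molecules of these genes alone, and 49.7% of the UMIs belonged to 4 genes, Rpl37a, Rpl7, Ptma and Rpl31. Levels are given as the UMIs of a gene per 1000000 UMIs of the table (CPM), summed over barcodes. They are not scaled to transcript length, so the 5 genes are not ranked against each other. None of the 4 listed epithelial markers and none of the parietal, chief or mucous cell markers has a row in the table as used here, so the sorted cell type could not be checked against them. The summed CPM of listed immune genes, 5 of 9 with a row, stayed between 0 and 111 in the groups of the Gsta3, Arl4c and Fn1 comparisons.

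The 5 genes together had 2484 UMIs. Cyp27a1 had 108 UMIs, or 246 CPM (201 to 297), and 96 of 1388 barcodes held at least 1. Of these, 84 held 1 UMI and 12 held 2. Its transcripts were thus scattered thinly over many barcodes, and an even spread over all UMIs would have put them in 103 barcodes. Sgpp2 had 345 UMIs, 785 CPM (704 to 872), in 285 barcodes against 298 for an even spread, and Pecr had 369 UMIs, 839 CPM (756 to 929), in 310 barcodes against 316. No barcode held more than 4 UMIs of Sgpp2 or 3 of Pecr. Lypla1 had 987 UMIs, 2244 CPM (2107 to 2389), in 673 barcodes, and an even spread gives 672. Acsl3 had 675 UMIs, 1535 CPM (1421 to 1655), in 447 barcodes against 514. Acsl3 was the member most gathered into fewer barcodes, with 41 barcodes at 3 UMIs and 11 at 4 to 6. Gsta3, a glutathione transferase gene, was gathered far more, in 1008 barcodes where an even spread gives 1328, and so was Arl4c, a small GTPase gene, in 439 against 703. The share of these UMIs that came from free RNA in the droplets was not tested.

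The levels of Cyp27a1 and Pecr were lower in the deepest barcodes. Cyp27a1 had 348 CPM (206 to 550, 18 UMIs) in barcodes of 100 to under 200 UMIs, 348 CPM (272 to 438, 72 UMIs) at 200 to under 400, and 99.5 CPM (59.0 to 157, 18 UMIs) at 400 or more. The deepest barcodes thus stood apart from both other classes, at 0.286 times (0.140 to 0.582) the level of the shallowest. Pecr had 1316 CPM (1022 to 1668), 898 CPM (774 to 1037) and 636 CPM (525 to 763) in the same order, lower at each step of depth, and the deepest stood at 0.483 times (0.355 to 0.662) the shallowest. Sgpp2 had 1006 CPM (751 to 1319), 734 CPM (622 to 860) and 779 CPM (656 to 919), Acsl3 1413 CPM (1107 to 1776), 1376 CPM (1221 to 1545) and 1752 CPM (1564 to 1956), and Lypla1 2148 CPM (1767 to 2586), 2438 CPM (2230 to 2660) and 2051 CPM (1847 to 2270). For these 3 genes the ratio of the deepest to the shallowest barcodes lay between 0.775 and 1.24 with intervals that held 1. Of the 240 genes with 50 or more UMIs, 29.2% were lower by 1.5-fold or more in the deepest barcodes and 10.4% were higher, so 2 of 5 members on the lower side is not far from the background. Depth and cell type cannot be told apart here. Gsta3, Arl4c and Fn1 also differed with depth. Gsta3 was 1.80 times (1.63 to 2.00) as high in the deepest as in the shallowest barcodes. Arl4c was at 0.601 times (0.498 to 0.728) and Fn1 at 0.283 times (0.220 to 0.365) the level of the shallowest.

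**Figure D1:**
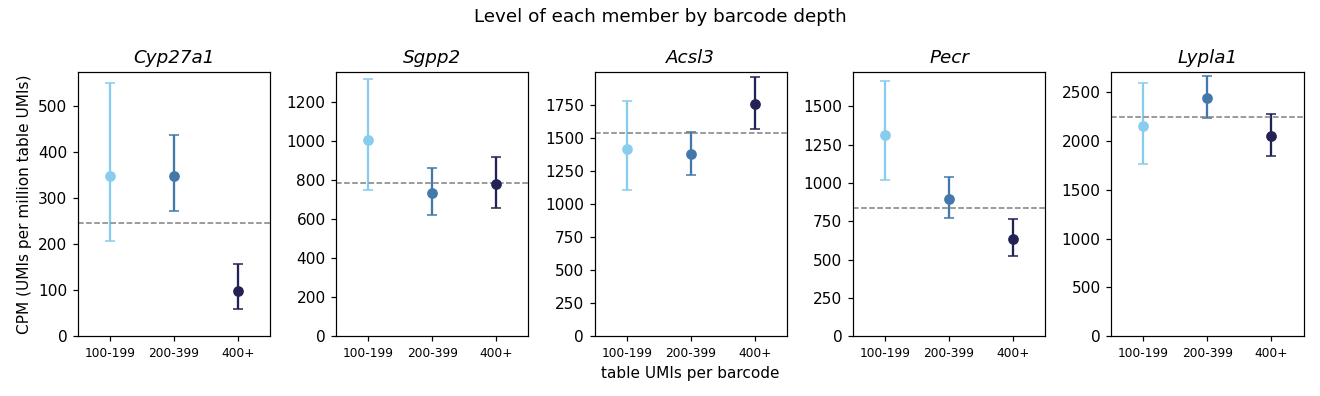
Level of each gene (CPM, linear axis from 0) in barcodes of 100 to under 200 (n = 330), 200 to under 400 (n = 712) and 400 or more (n = 346) table UMIs; bars are exact Poisson 95% intervals and the dashed line is the level over all kept barcodes. Cyp27a1 is at 99.5 CPM in the deepest class against 348 in each of the others, and Pecr steps down from class to class.

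Cyp27a1 was higher in barcodes rich in Gsta3, with the ratio farthest from 1 among the 15 of the 5 genes in the Gsta3, Arl4c and Fn1 comparisons over all kept barcodes. Gsta3 conjugates glutathione to reactive compounds, and its share of the UMIs split the barcodes into 157 Gsta3-rich ones (3% or more) and 812 Gsta3-poor ones (under 1%), with median totals of 308 and 270.5 UMIs. Cyp27a1 reached 459 CPM (25 UMIs) in Gsta3-rich barcodes, against 173 CPM (42 UMIs) in Gsta3-poor ones, a ratio of 2.65 (1.55 to 4.45). Among 239 genes compared, 7.53% were 1.5-fold or more higher in Gsta3-rich barcodes and 11.7% lower, and of the 5 members 1 was higher and 0 were lower. By intervals off 1 the shares were 13.8% higher and 11.7% lower, and again 1 and 0 of the members. The 3 genes with the highest ratios were Xkr9 (3.67, 1.67 to 7.90), the glycosyltransferase gene B3gnt7 (3.08, 1.59 to 5.84) and Cyp27a1 itself. They had 50, 77 and 108 UMIs over all kept barcodes, where 50 was the fewest allowed, and their intervals overlapped. At the other end were the endocrine granule gene Resp18, Inpp5d (0.207, 0.0243 to 0.795) and Myl1 (0.223, 0.0261 to 0.858). Resp18 had 0 UMIs in Gsta3-rich barcodes against 71 in Gsta3-poor ones. A floor of 3 counts over the group puts it 5.32-fold lower. The exact interval of the ratio, up to 0.237, allows a smaller difference.

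The Cyp27a1 difference was seen in the middle and the deepest class of barcodes. At 200 to under 400 UMIs it stood at 679 CPM (18 UMIs) in Gsta3-rich and 212 CPM (24 UMIs) in Gsta3-poor barcodes, a ratio of 3.20 (1.64 to 6.15), and at 400 or more UMIs at 242 CPM (6 UMIs) and 64.6 CPM (6 UMIs), a ratio of 3.75 (1.00 to 14.0). In the shallowest class the Gsta3-rich barcodes held 1 Cyp27a1 UMI against 12, which left the ratio of 0.954 (0.0223 to 6.45) undetermined. Across classes of Gsta3 share, Cyp27a1 had 173 CPM under 1%, 226 CPM at 1 to 2%, 398.8 CPM at 2 to 3%, 521 CPM at 3 to 5% and 351 CPM (141 to 724, 7 UMIs) at 5% or more. The values went up over the first 4 classes, with intervals of 125 to 234, 140 to 346, 244 to 616 and 309 to 824 CPM. Each of these overlapped that of the next class, while those under 1% and at 3 to 5% did not overlap. The interval of the last class was too wide to place it. Among barcodes without an Arl4c UMI the ratio was 3.06 (1.56 to 5.86), and among those with one it was 2.01 (0.744 to 4.98, 8 against 16 UMIs).

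The other 4 genes had ratios between 0.717 and 1.06, with intervals that held 1 and reached down to 0.480 for Pecr. Sgpp2 had 680 CPM in Gsta3-rich and 821 CPM in Gsta3-poor barcodes (ratio 0.828, 0.566 to 1.18). Acsl3 had 1212 and 1510 CPM (0.803, 0.608 to 1.05) and Pecr 606 and 846 CPM (0.717, 0.480 to 1.04). Lypla1 had 2259 CPM in Gsta3-rich and 2125 CPM in Gsta3-poor barcodes (1.06, 0.866 to 1.30). Of the depth classes, Acsl3 had an interval off 1 in the middle one alone, at 0.586 times (0.357 to 0.919). Among barcodes without Arl4c it was at 0.705 times (0.495 to 0.982), against 1.07 (0.659 to 1.68) with Arl4c. Pecr was at 0.638 times (0.397 to 0.982) among barcodes without Fn1, against 1.06 (0.454 to 2.22) with Fn1. Whether these classes and groups differ from each other was not tested. The median log2 ratio of the 5 members was -0.27, beside -0.0021 over all 239 genes. The Gsta3-rich barcodes also differed in makeup: the summed level of Vil1 and Alpi, the 2 of 5 listed enterocyte genes with a row, was 6300 CPM against 3837, that of 5 of 8 proliferation genes 1231 CPM against 2385, and that of Inpp5d and Ptpn18, 2 of 6 tuft genes, 1837 CPM against 2715. The endocrine genes Ptprn, Resp18 and Scg2, 3 of 8 listed, summed to 129 CPM in Gsta3-rich and 635 CPM in Gsta3-poor barcodes, with Resp18 and Scg2 at 0 UMIs in Gsta3-rich ones. The stromal and muscle list stood at 36.7 CPM against 173, with 2 of 2 UMIs and 40 of 42 from Myl1. Rpl7, Rpl31 and Rpl37a together took 36.2% of UMIs against 41.8%. The part of these differences in the Cyp27a1 ratio was not tested. With the 4 most abundant genes left out of the totals, which changes the totals alone, the Cyp27a1 ratio was 2.37.

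**Figure D2:**
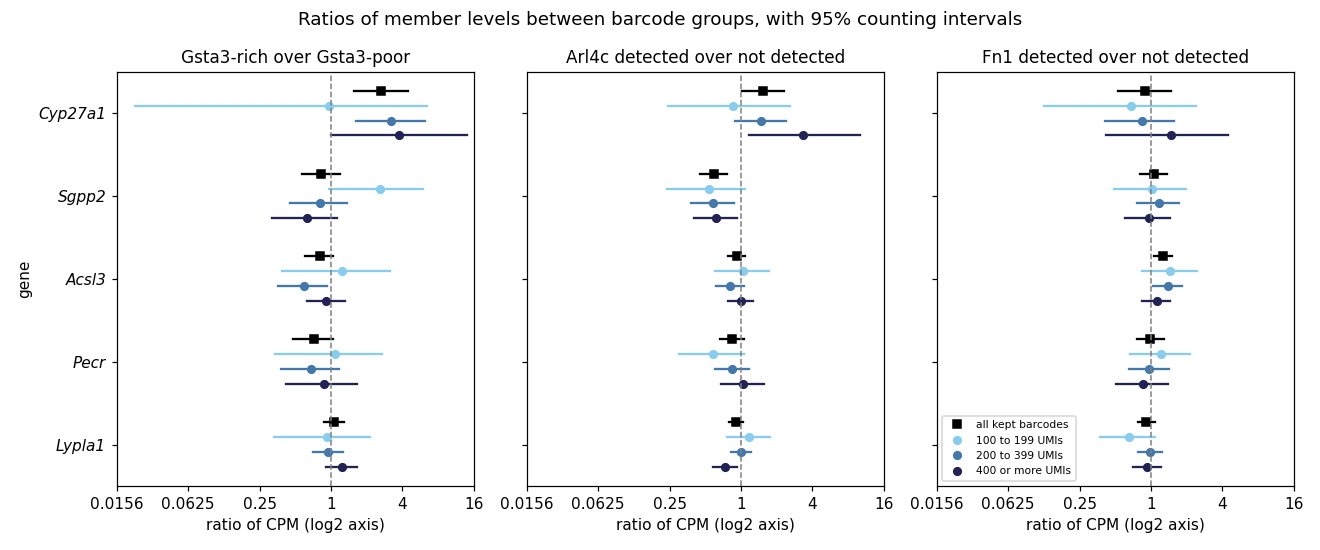
Ratio of CPM between barcode groups (log2 axis) for each gene in the Gsta3, Arl4c and Fn1 comparisons; squares are all kept barcodes, circles the 3 depth classes, and bars exact 95% intervals for counting error. The Cyp27a1 ratio of 2.65 for Gsta3 and the Sgpp2 ratio of 0.588 for Arl4c lie farthest from the dashed line at 1 among the squares.

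Sgpp2 was lower in barcodes with a transcript of Arl4c, with a ratio below 1 in each depth class. An Arl4c UMI was found in 439 barcodes and none in 949, with median totals of 275 and 293 UMIs. Sgpp2 had 531 CPM (74 UMIs) in barcodes with Arl4c, against 902 CPM (271 UMIs) in those without, a ratio of 0.588 (0.449 to 0.763). The ratio was 0.534 (0.239 to 1.08) at 100 to under 200 UMIs, 0.582 (0.381 to 0.865) at 200 to under 400 and 0.617 (0.402 to 0.922) at 400 or more, and the interval of the shallowest class held 1. By number of Arl4c UMIs, Sgpp2 stood at 902 CPM with 0, 507 CPM (351 to 708) with 1, 669 CPM (445 to 967) with 2 to 3 and 394 CPM (204 to 688) with 4 or more. The 3 classes with Arl4c had intervals that overlapped each other, and the interval at 2 to 3 UMIs also overlapped that of barcodes with 0. Within Gsta3-poor barcodes the ratio was 0.493 (0.334 to 0.711), and within Gsta3-rich ones 0.529 (0.209 to 1.19). It was 0.487 (0.239 to 0.913) among barcodes with Fn1 and 0.615 (0.456 to 0.820) among those without. Farsb, a tRNA synthetase subunit gene that overlaps the end of Sgpp2, was at 0.845 times (0.739 to 0.964) its level in barcodes without Arl4c, and its residuals had a correlation of 0.0032 with those of Sgpp2.

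Cyp27a1 was higher in barcodes with Arl4c, by a margin close to counting error. It had 323 CPM (45 UMIs) with Arl4c and 210 CPM (63 UMIs) without, a ratio of 1.54 (1.03 to 2.29). By number of Arl4c UMIs, Cyp27a1 stood at 210 CPM (161 to 268) with 0 and 358 CPM (229 to 532) with 1. It was at 335 CPM (183 to 561) with 2 to 3 and 230 CPM (92.4 to 474, 7 UMIs) with 4 or more. Values went down from 1 UMI on, and all of these intervals overlapped. The ratio was 0.863 (0.241 to 2.58, 5 against 13 UMIs) in the shallowest and 1.47 (0.886 to 2.41, 29 against 43 UMIs) in the middle class. In the deepest class it was 3.30 (1.17 to 10.0, 11 against 7 UMIs). These intervals overlapped, and whether the classes differ from each other was not tested. With Gsta3 share held under 1% the ratio was 1.37 (0.688 to 2.66), and at 3% or more 0.902 (0.337 to 2.21), both with intervals that held 1. Acsl3 had 1449 CPM with Arl4c and 1575 CPM without (0.920, 0.777 to 1.09), Pecr 746 and 882 CPM (0.846, 0.667 to 1.06), and Lypla1 2102 and 2311 CPM (0.910, 0.791 to 1.04). Lypla1 had an interval off 1 in the deepest class alone, at 0.734 times (0.575 to 0.929). Of 239 genes, 5.02% were 1.5-fold or more higher in barcodes with Arl4c and 7.11% lower, and 1 member, Cyp27a1, passed on the higher side and 1, Sgpp2, on the lower. Intervals were off 1 for 13.8% of the genes on the higher and 14.2% on the lower side, and for the same 2 members. The highest ratios belonged to Tm4sf20 (3.51, 2.89 to 4.28), Igfbp2 (3.14, 1.82 to 5.52) and Ptprn (3.14, 2.12 to 4.67), and the lowest to Inpp5d (0.287, 0.100 to 0.676), Alpi (0.368, 0.251 to 0.525) and 2810408I11Rik (0.464, 0.257 to 0.790). Of the 3 listed endocrine genes with a row, Ptprn had 67 UMIs with Arl4c and 46 without, whereas Resp18 and Scg2 together had 136 CPM with and 226 CPM without (19 and 68 UMIs), so the list did not move one way. The tuft genes summed to 1442 CPM with Arl4c and 2650 CPM without, the enterocyte genes to 3831 and 4691 CPM and the proliferation genes to 1571 and 2137 CPM. The part of these differences in the Sgpp2 ratio was not tested.

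Acsl3 was higher in barcodes with a transcript of Fn1, which encodes the matrix protein fibronectin, and the other 4 genes had intervals that held 1. A UMI of Fn1 was found in 283 barcodes and none in 1105, with median totals of 283 and 286 UMIs. Acsl3 had 1843 CPM (164 UMIs) in barcodes with Fn1, against 1457 CPM (511 UMIs) in those without, a ratio of 1.27 (1.05 to 1.51). It was 1706 CPM (1372 to 2097) in barcodes with 1 Fn1 UMI and 2043 CPM (1605 to 2565) in those with 2 or more. The ratio was 1.45 (0.840 to 2.44), 1.39 (1.05 to 1.82) and 1.11 (0.844 to 1.46) from the shallowest to the deepest class. Each class thus had the higher value with Fn1, with an interval off 1 in the middle class. It was 1.52 (0.834 to 2.67) among Gsta3-rich and 1.41 (1.11 to 1.78) among Gsta3-poor barcodes, and 1.20 (0.837 to 1.69) among barcodes with Arl4c and 1.29 (1.04 to 1.58) among those without. Sgpp2 had 821 CPM with Fn1 and 775 CPM without (1.06, 0.806 to 1.37), Pecr 832 and 841 CPM (0.989, 0.756 to 1.28), Lypla1 2091 and 2284 CPM (0.916, 0.776 to 1.08) and Cyp27a1 225 and 251 CPM (0.896, 0.522 to 1.47). Among Gsta3-rich barcodes alone, Sgpp2 had 13 UMIs with Fn1 and 24 without, a ratio of 2.20 (1.03 to 4.50), against 0.863 (0.589 to 1.24) among Gsta3-poor ones, and this difference was not tested. None of the 5 members was past 1.5-fold, where 3.77% of 239 genes were higher and 5.86% lower. Intervals were off 1 for 7.53% of the genes on the higher and 8.37% on the lower side, and for 1 and 0 of the members. At the ends of that range stood Igfbp2 (3.56, 2.06 to 6.14), 1700019D03Rik (2.02, 1.15 to 3.45) and 1700066M21Rik (1.69, 0.963 to 2.87), and Myl1 (0.0758, 0.0019 to 0.441), Resp18 (0.167, 0.0336 to 0.507) and Ccl20 (0.320, 0.221 to 0.449). Myl1 gave 1 of the 2 UMIs of the stromal and muscle list with Fn1 and 52 of the 54 without, and the other 4 genes of that list with a row summed to 1 and 2 UMIs, with Chrnd at 0 in all barcodes. The tuft genes summed to 1652 CPM with Fn1 and 2423 CPM without. Of the enterocyte genes, Alpi had 259 and 639 CPM and Vil1 3866 and 3854 CPM. The endocrine genes summed to 326 and 487 CPM, with Ptprn higher with Fn1 (292 and 248 CPM). The proliferation genes summed to 2113 and 1919 CPM, with Mcm3 and Sgol2 lower with Fn1. The part of these differences in the Acsl3 ratio was not tested.

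**Figure D3:**
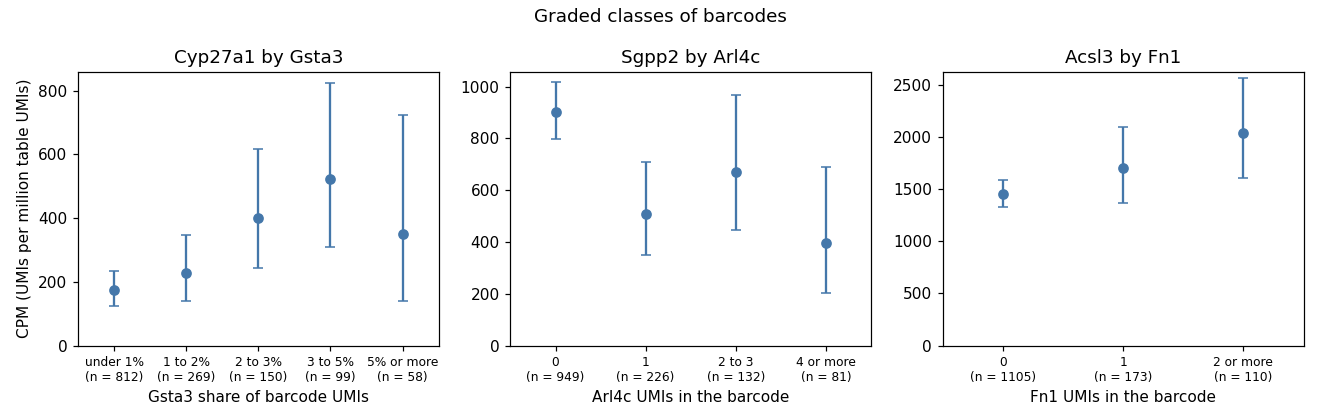
Level (CPM, linear axis from 0) of Cyp27a1 by Gsta3 share, of Sgpp2 by number of Arl4c UMIs and of Acsl3 by number of Fn1 UMIs; n is the number of barcodes and bars are exact Poisson 95% intervals. Cyp27a1 runs from 173 to 521 CPM over the first 4 classes, Sgpp2 steps down from 902 CPM where Arl4c is present, and Acsl3 runs from 1457 to 2043 CPM.

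The measured co-variation of the 5 genes from barcode to barcode was small. Residuals from a model with the barcode total and the gene's share were correlated within the 3 depth classes, and the mean correlation of the 10 pairs ran from -0.0273 to 0.0753 with a median of 0.0055. Over all 28680 pairs of the 240 genes the middle 95% lay between -0.0625 and 0.0751, and 9 of the 10 pairs fell within it. Acsl3 and Lypla1 had the highest value, 0.0753, just above it, and it was the only pair with 1 sign in all 3 classes (0.0905, 0.0635 and 0.0853). Both transcripts were found in 260 barcodes, against 238 expected from their frequencies within the classes, a ratio of 1.09 (0.964 to 1.23). Cyp27a1 and Sgpp2 had the lowest value, and 13 barcodes held both against 18.8 expected (0.693, 0.369 to 1.19). For each of the 10 pairs the interval of observed over expected held 1. For scale, the mitochondrial chaperonin genes Hspd1 and Hspe1, which share a promoter region, reached 0.258 by the same measure. Hspd1 had 4573 UMIs, where the members had 108 to 987, and the part of abundance in this gap was not tested. In counts this sparse, correlations of this size describe the table and are no finding.

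**Figure D4:**
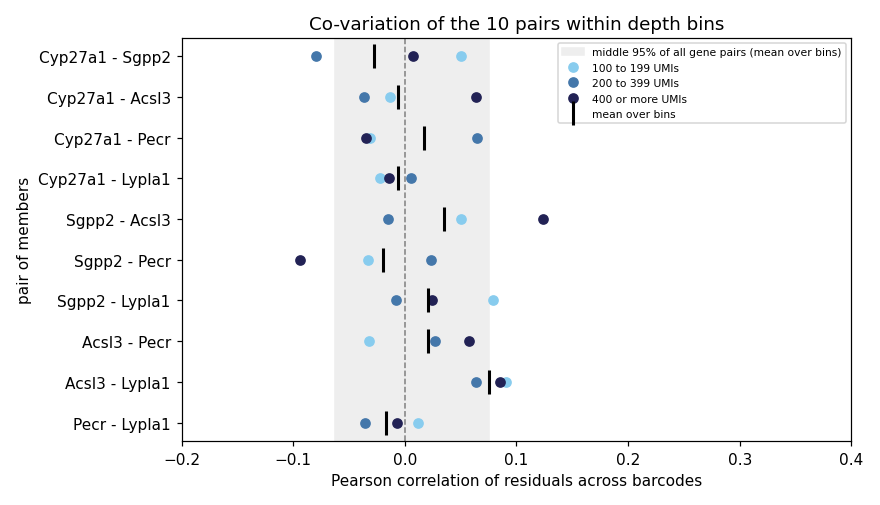
Pearson correlation of residuals across barcodes for the 10 pairs of members; circles are the 3 depth classes, black ticks their mean weighted by barcodes, and the grey band the middle 95% of the means of all 28680 gene pairs. The ticks lie between -0.0273 and 0.0753, and only Acsl3 and Lypla1 have all 3 circles on 1 side of 0.

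The genes whose residuals were most like those of each member, among genes with 50 or more UMIs over the 1388 barcodes, differed from member to member. For Cyp27a1 they were Slc9a4, a sodium/proton exchanger gene (0.0988), Gsta3 (0.0865) and Il1r1 (0.0797). For Sgpp2 they were the Wnt receptor gene Fzd5 (0.0935), Hspd1 (0.0888) and Spats2l (0.0857), and for Acsl3 the alkaline phosphatase gene Alpi (0.123), the respiratory chain gene Cox5b (0.114) and Trak2 (0.105). Pecr was most like the purine synthesis gene Atic (0.0771), the hedgehog ligand gene Ihh (0.0729) and Unc50 (0.0586), and Lypla1 most like Tgfbrap1 (0.0993), Cab39 (0.0891) and Ihh (0.0884). Ihh was the only gene named for 2 members. All values were weak, all barcodes come from 1 table, and the part of free RNA in them was not tested.

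Smaller groups of barcodes were set against all remaining kept barcodes. Acsl3 was higher in the 61 barcodes with an Alpi UMI, at 2369 CPM against 1478 CPM in the rest (1.60, 1.23 to 2.07), and Alpi is an enterocyte gene. Median totals were 443 UMIs with Alpi and 281 in the rest, and the part of depth in this ratio was not tested. Acsl3 was lower in the 69 barcodes with 2 or more UMIs of the chemokine gene Ccl20, at 1007 CPM against 1564 CPM (0.644, 0.405 to 0.975). In the 28 barcodes with Inpp5d, a phosphoinositide phosphatase gene listed here with tuft cell markers, Acsl3 had 3 UMIs, 371 CPM, against 1557 CPM in the rest (0.238, 0.0490 to 0.699). In the 43 barcodes with Sgol2, a gene of centromere cohesion in dividing cells, Cyp27a1 had 1 UMI, 44.9 CPM, against 256 CPM (0.175, 0.0044 to 0.997). Those barcodes had a median total of 460 UMIs against 282. At 200 to under 400 UMIs the ratio was 0.582 (0.0145 to 3.35), at 400 or more there were 0 Cyp27a1 UMIs against 18 (ratio up to 2.14), and standardised for depth it was 0.286, so within depth classes no difference was detectable. The 40 barcodes with the endocrine granule gene Ptprn held 0 UMIs of Cyp27a1, against 255 CPM in the rest. A floor of 3 counts over the group puts it at up to 179 CPM, 1.43-fold lower. The exact interval of the ratio, up to 0.875, allows a smaller difference. Sgpp2 had 298 CPM (5 UMIs) in the Ptprn barcodes against 804 CPM in the rest (0.370, 0.120 to 0.873). Median totals were 394 UMIs with Ptprn and 283.5 in the rest, and the part of depth in these ratios was not tested. In the remaining 19 of 25 such ratios the interval held 1, among them all 5 of Lypla1 and all 5 of Pecr. Over 239 genes the intervals off 1 on the lower side came to 7.53% for Inpp5d, 15.5% for Sgol2, 5.86% for Ccl20, 10.9% for Alpi and 12.1% for Ptprn. On the higher side they came to 12.1%, 9.62%, 3.77%, 10.9% and 8.37% in the same order. Of the 5 members, 2 had intervals off 1 in the Ptprn group and 1 in each other group, counts too small to set apart from these shares.

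Other genes of lipid metabolism were read from 5 lists of 158 genes, of which 21 had a row, the 5 members among them. Of the 16 others, 8 had 50 or more UMIs. In the fatty acid list, Acadl, a mitochondrial acyl-CoA dehydrogenase gene, had 3306 CPM, Hibch, a hydrolase gene of valine breakdown, 659 CPM, and Idh1, which makes cytosolic NADPH, 7704 CPM. Ormdl1, a regulator of sphingolipid synthesis, had 866 CPM. The phospholipid list held Pgap1, which trims the lipid anchor of membrane proteins (2129 CPM), the diacylglycerol kinase gene Dgkd (1030 CPM), Inpp4a (191 CPM) and Inpp5d (116 CPM). Mogat1, of glyceride synthesis, had 39 UMIs in 23 barcodes, the sialidase gene Neu2 33, Pikfyve 30, Plcl1 9, Adhfe1 5, Prkag3 2, Plcd4 1 and the lipid transporter gene Abca12 0. Cyp27a1 was the only gene of the sterol list with a row.

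Of these 8 genes, 2 were 1.5-fold or more higher in Gsta3-rich barcodes and 1 was lower, beside 7.53% higher and 11.7% lower among 239 genes. Counts of 1 or 2 among 8 genes, here and below, are too small to set apart from such shares. Idh1 had 11754 CPM in Gsta3-rich and 6329 CPM in Gsta3-poor barcodes (1.86, 1.69 to 2.04), and Pgap1 2994 and 1943 CPM (1.54, 1.28 to 1.84), while Inpp5d was the lower one. Acadl was higher by less, at 1.21 times (1.03 to 1.42). The median log2 ratio of the 8 genes was 0.22, beside -0.0021 over 239 genes. With Arl4c, 0 of the 8 were past 1.5-fold higher and 1 (Inpp5d) lower, where 5.02% of 239 genes were higher and 7.11% lower. The median log2 ratio was -0.18 beside -0.0383 over 239 genes. Ormdl1 was at 0.777 times (0.613 to 0.979) its level in barcodes without Arl4c. Intervals were off 1 on that lower side for 14.2% of the 239 genes. With Fn1, 0 were higher and 1 (Inpp5d, 0.429, 0.133 to 1.07) lower past 1.5-fold, where 3.77% of 239 genes were higher and 5.86% lower. Idh1 stood at 0.754 times (0.687 to 0.827) and Pgap1 at 0.758 times (0.633 to 0.904), whereas Acadl was at 1.14 times (1.00 to 1.29) its level in barcodes without Fn1.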

How the data were processed

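Single-cell RNA of sorted stomach gland cells was measured on the 10x platform, per the labels' protocols. The values are raw counts in 1 table deposited by the authors, all whole, read here as UMIs. Cell Ranger, Seurat 2.3.0 and mm10 are named in the submitters' processing notes without their roles, and what cells or genes had been filtered beforehand is not stated there. Of 780 rows, 1 was incomplete and left out. The 711 symbols that match GENCODE vM21 lie on chromosome 1, between positions 3102016 and 89933290. The number of unused value columns was 0.

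Barcodes with 100 or more UMIs were kept. Levels are CPM with exact Poisson intervals, and ratios of CPM carry exact conditional binomial intervals, all at 95%. They cover counting error only. Where no UMI was seen, a floor of 3 counts was used as a separate limit, and the exact intervals do not use it. Barcodes are not replicates, so no p-value is given. Doublets were not called. Pearson residuals (overdispersion parameter 100, limit 10) were correlated within 3 depth classes, and means were weighted by barcodes. Genes with 50 or more UMIs gave the background. Python 3.11.15 with numpy 2.4.6 and scipy 1.17.1 was used, and the ratio and correlation steps were tested on simulated data.

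The members, splits and gene lists were chosen with earlier results of these data known. Named genes are the 5 members, the listed lipid genes, the genes of the splits, the 3 genes most like each member and the 3 highest and 3 lowest ratios of each split. The smaller barcode groups were defined by Inpp5d, Sgol2, Ccl20, Alpi and Ptprn. Alternatives changed the filter on barcodes, the totals, the weighting, depth matching and the thresholds.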

Additional observations from a re-analysis of the deposited data

Results flagged for a closer look

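Barcodes below 100 UMIs, 72 in number, entered no comparison. They held 5043 UMIs, and 4 of the 5 genes exceeded 595 CPM, the upper limit for a gene without any UMI there. Cyp27a1 reached 1190 CPM (437 to 2590) from 6 UMIs in 6 barcodes, 4.84 times (1.74 to 10.9) its level in the kept barcodes. Sgpp2 reached 1586 CPM from 8 UMIs (2.02 times, 0.866 to 4.03), Acsl3 1785 CPM from 9 UMIs (1.16 times, 0.529 to 2.22) and Lypla1 2181 CPM from 11 UMIs (0.972 times, 0.484 to 1.75). Pecr had 2 UMIs.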

How the results depend on the processing

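Of the alternative values of the 15 member ratios, 138 stayed within the 95% counting interval of the value reported 2 did not, and 0 turned a ratio whose interval was off 1. The Cyp27a1 ratio for Gsta3 ran from 2.03 to 3.21, the Sgpp2 ratio for Arl4c from 0.578 to 0.613 and the Acsl3 ratio for Fn1 from 1.24 to 1.40. The Cyp27a1 ratio for Arl4c ran from 1.27, with every barcode weighted equally, to 1.71. The Acsl3 ratio for Gsta3 moved to 0.599 at a Gsta3 share of 5% or more (18 UMIs), and the Sgpp2 ratio for Fn1 to 0.783 with 2 or more Fn1 UMIs (22 UMIs). The cause was not tested. Matching on another split was added after seeing the data, as was depth matching of Cyp27a1 in Sgol2 barcodes. Without the 4 most abundant genes in the totals, levels were by construction higher: Cyp27a1 488, Sgpp2 1559, Acsl3 3050, Pecr 1667 and Lypla1 4460 CPM. With every barcode weighted equally Pecr was at 958 CPM. With genes of 200 or more UMIs the share past 1.5-fold in either direction was 11.4% for Gsta3 (19.2% before), 7.19% for Arl4c (12.1%) and 2.99% for Fn1 (9.62%). The alternative correlations of the 10 pairs lay within the range of the values in their depth classes. No paired analysis was possible because the barcodes carry no sample number, and for the same reason leaving out each sample was not run. Ratios with fewer than 10 UMIs in a group have intervals too wide to order them.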
